A study of Oryctolagus cuniculus with 6 samples.

Results

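The genes described here belong to the machinery of regulated cell death: the BCL2 family, caspases and their inhibitors, and the genes of necroptosis and pyroptosis. The list named 41 genes, and a gene was kept where the deposited tables held a row under exactly that symbol. This left 33 genes of the 28788 in the tables, and all 33 passed the filter on low counts, as did 18697 genes in all. The 8 genes without such a row were BCL2L2, BIK, PMAIP1, CYCS, FADD, RIPK3, MLKL and PYCARD. The necroptosis genes RIPK3 and MLKL were thus not analysed here.

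The samples were 3 normal rabbit retinas and 3 retinas of rabbits with proliferative vitreoretinopathy (PVR), a scarring disease in which membranes grow on the retina after injury. In the model, adult rabbits had the sclera punctured and some vitreous withdrawn, and platelet-rich plasma was put in its place. No genotype, strain, age in weeks or time after injury is given, and the labels do not say whether normal eyes had surgery or whether the samples were separate animals. The p-values therefore measure the spread between these samples, which may be technical in part. The samples were bulk retina, in which fewer cells of a type and less RNA per cell cannot be told apart.

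In apoptosis, signals meet at the mitochondrion or at a death receptor. At the mitochondrion, BAX and BAK1 form pores, anti-apoptotic proteins such as BCL2 and MCL1 hold them back, and BH3-only proteins release that hold. Cytochrome c then assembles APAF1 and caspase-9 into the apoptosome, while caspase-8 starts the route from the receptor. In necroptosis and pyroptosis the cell membrane itself is opened, in the latter by gasdermins that inflammatory caspases cut. In the retina these routes are best known for the loss of photoreceptors after detachment.

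The libraries held between 31904593 and 43035080 counted reads. Rod genes, the defining markers of retina, were abundant in all 6 samples. Their summed CPM, a count scaled to library size with TMM factors, was 41387 to 48796 in normal retina and 29578 to 40509 in PVR retina. Lens genes were far higher in normal replicate 2, at a summed 32710 CPM against 12.2 to 300.05 CPM in the other samples. The oligodendrocyte markers differed widely among the normal samples, at 249 to 1209 CPM, with normal replicate 3 highest, and stood at 137 to 156 CPM in PVR.

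None of the 33 cell death genes passed an adjusted p of 0.05 in edgeR's quasi-likelihood test, with or without a fold threshold, where 1.7% of all genes tested passed it (1.01% with a log2 fold change beyond 1). At an unadjusted p under 0.05 there were 6 genes, or 18.2%, against a background of 21.2% of all genes. BIRC3, CASP8, BCL2A1 and MCL1 were on the higher side in PVR, where 11.3% of all genes stood, and BAK1 and ENDOG on the lower side, where 9.94% stood. DESeq2 called 3 of the 33, namely CASP8, BIRC3 and ENDOG, or 9.09%, against 8.77% of the genes it tested. With limma-voom there were 0 calls among the members, against 1.15% of all genes, and 5 members (15.2%) had an unadjusted p under 0.05, against 20.2%. With limma on log2(FPKM + 1) there were 0 calls, against 1.18%, and 8 members (24.2%) had an unadjusted p under 0.05, against 20.0%. By the edgeR and DESeq2 counts the share of cell death genes was near the background.

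The differences of most members were bounded within 2-fold, at a share near that of all genes. The median standard error of the log2 fold change was 0.231 for the members and 0.197 for all genes tested. The median log2 fold change over the 33 was -0.0038 (16 above 0 and 17 below), and that over all genes tested was -0.0088. The quartiles of the members were -0.15 and 0.25, and those of all genes -0.22 and 0.30. For 22 members (66.7%) the 95% interval lay wholly within a 2-fold difference either way, as it did for 61.4% of all genes. For the other 11 the data leave a 2-fold difference possible: BCL2A1, BAK1, BID, BBC3, HRK, CASP8, CASP6, ENDOG, BIRC3, CASP1 and GSDMD. Of these, CASP8, HRK, BID, CASP1, GSDMD, BIRC3, BCL2A1 and BBC3 had a mean FPKM under 1 in the normal samples.

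**Figure D1:**
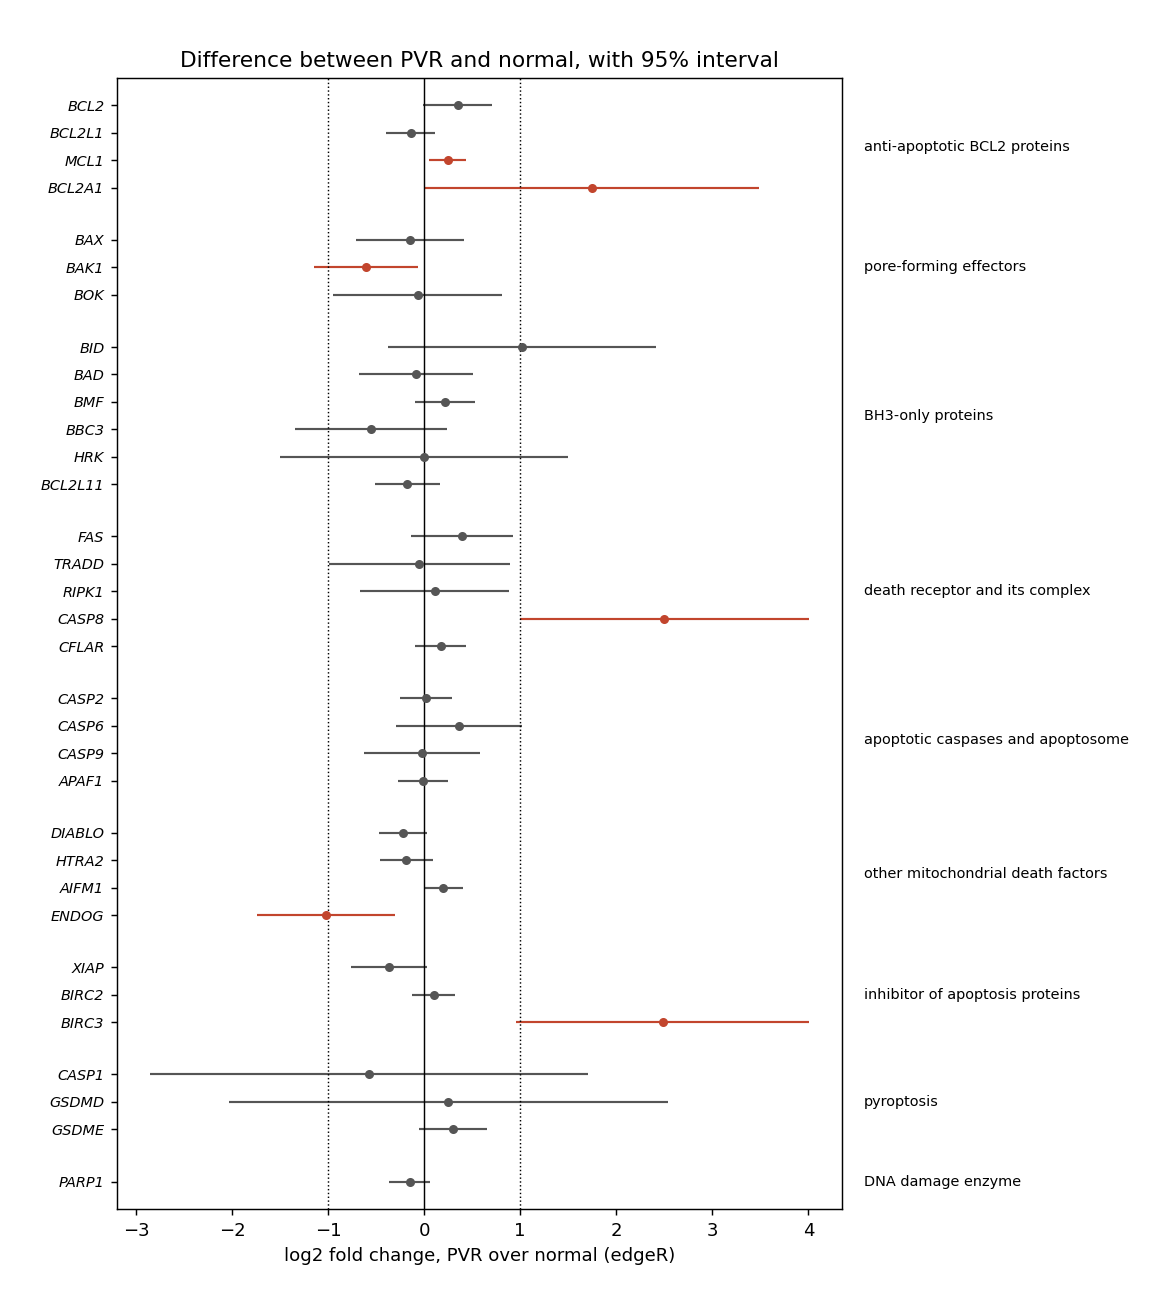
Difference of each of the 33 cell death genes between PVR and normal retina, as the log2 fold change of edgeR on the x axis, with bars for the 95% interval and dotted lines at a 2-fold difference. Red marks the 6 genes with an unadjusted p under 0.05, and the intervals of the other genes span 0.

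On the FPKM scale, which corrects for gene length and total count, the members ranged from 0.0139 for GSDMD in normal replicate 3 to 191 for XIAP in normal replicate 1. XIAP, which binds and blocks caspases, was the highest in both groups and alone made up 41.2% of the summed FPKM of the 33 genes in the normal samples and 34.7% in PVR. MCL1, PARP1, DIABLO, BIRC2, AIFM1, BCL2L1 and HTRA2 followed, and these 8 genes were above a mean of 10 FPKM in both groups. A further 14 genes lay between 1 and 10 FPKM in the normal samples, and 11 lay under 1 FPKM. In PVR these numbers were 17 and 8, since BIRC3, BCL2A1 and RIPK1 had means above 1 FPKM there. The order of levels was similar in both groups, with XIAP, MCL1 and PARP1 at positions 1 to 3 in each.

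**Figure D2:**
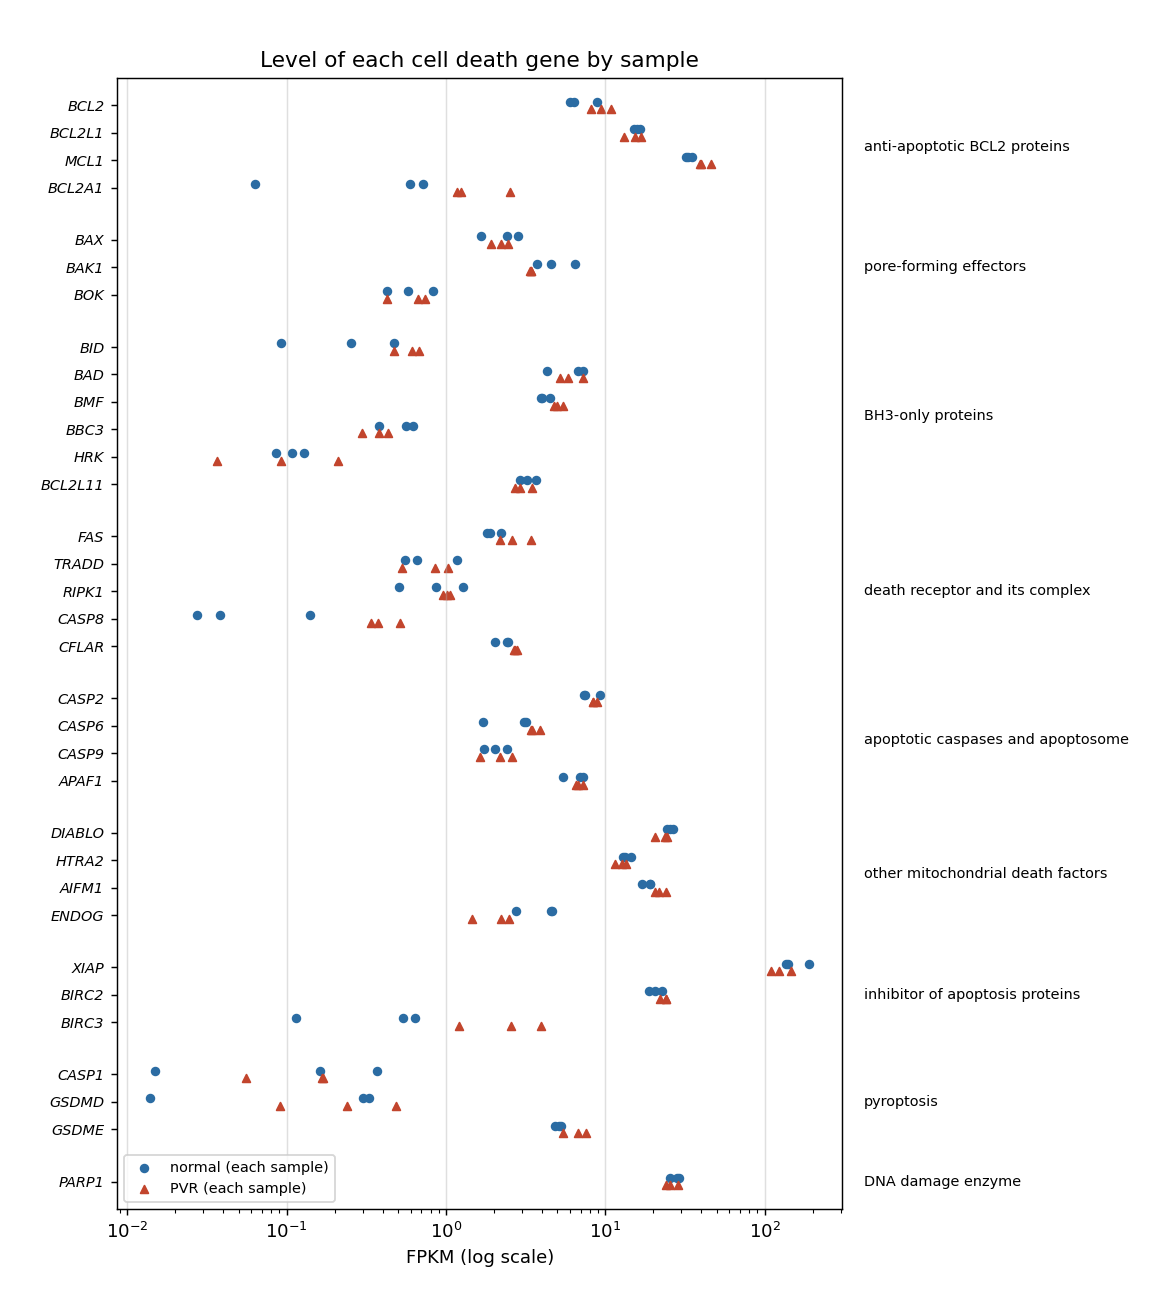
FPKM of each cell death gene in every sample on a log axis, with circles for the 3 normal and triangles for the 3 PVR samples, grouped by role. The spread between normal samples is widest for the genes under 1 FPKM, such as CASP1, GSDMD and BCL2A1.

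The anti-apoptotic BCL2 proteins bind the pore formers and BH3-only proteins. Of the 4 with a row, 3 had a positive log2 fold change, none passed an adjusted p of 0.05 in edgeR, and their median was 0.30. MCL1, a short-lived guardian protein that many cells need to survive, had an FPKM of 34.9, 32.1 and 33.2 in normal retina versus 39.8, 46.0 and 39.1 in PVR retina. Every PVR sample was thus above every normal sample, by a small margin. For MCL1 the log2 fold change was 0.25 (standard error 0.08, edgeR adjusted p = 0.156), and it stayed between 0.18 and 0.28 over all alternatives fitted to counts.

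BCL2, the founding member of the family, had an FPKM of 6.04, 6.38 and 8.82 in normal retina versus 9.42, 10.8 and 8.14 in PVR retina. PVR replicate 3 lay below normal replicate 3, so the groups overlapped, and the log2 fold change was 0.35 (standard error 0.15, edgeR adjusted p = 0.247). Without normal replicate 3 the log2 fold change of BCL2 was 0.53 (edgeR adjusted p = 0.0868). BCL2L1, which encodes BCL-xL and was more abundant than BCL2, stood at 15.8 ± 0.607 FPKM (SD, n = 3) in normal retina versus 15.1 ± 1.79 FPKM (SD, n = 3) in PVR. Its 95% interval of the log2 fold change ran from -0.39 to 0.11. BCL2A1, a family member of white blood cells that NF-kB switches on, was rare. It had 64, 81 and 7 counts in normal retina versus 103, 224 and 147 in PVR retina. The groups did not overlap, but normal replicate 3 stood far below the other normal samples. The log2 fold change of BCL2A1 was 1.74 (standard error 0.75, edgeR adjusted p = 0.236), and without normal replicate 3 it was 1.23.

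The pore formers BAX, BAK1 and BOK all had negative log2 fold changes, from -0.60 to -0.07, and none passed an adjusted p of 0.05. BAK1, which sits in the outer mitochondrial membrane, was the most abundant, with an FPKM of 3.71, 6.43 and 4.57 in the normal samples. In PVR it stood at 3.39, 3.42 and 3.39 FPKM, so that the PVR samples were close together and just under the lowest normal sample. The log2 fold change was -0.60 (standard error 0.23, edgeR adjusted p = 0.199), and without normal replicate 2, the sample with lens transcripts, it was -0.33. BAX, the cytosolic partner of BAK1, had 2.31 ± 0.601 FPKM (SD, n = 3) in normal retina versus 2.20 ± 0.272 FPKM (SD, n = 3) in PVR, with overlapping groups. BAX had a log2 fold change of -0.15, with a 95% interval from -0.71 to 0.41, and it was 0.053 without normal replicate 2. BOK, whose role in pore formation is less settled, stayed under 1 FPKM in every sample.

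Within a sample, the FPKM of BCL2 was 2.49, 2.24 and 5.31 times that of BAX in the normal samples and 3.83, 5.65 and 3.69 times in PVR. This ratio, which is often read as a balance of survival and death signals, overlapped between the groups and was highest among the normal samples in replicate 3. The ratio of BCL2L1 to BAX was 6.26, 5.57 and 9.90 in normal retina versus 6.26, 6.84 and 7.54 in PVR retina, also with overlap. The ratio of MCL1 to BAK1 was 9.41, 4.99 and 7.27 in the normal samples. In PVR it was 11.7, 13.4 and 11.5, a separation that follows from the values of both genes given above.

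BH3-only proteins report stress to the family. Of the 6 with a row, 2 had a positive and 4 a negative log2 fold change, with a median of -0.04 and no gene past an unadjusted p of 0.05 in edgeR. BAD, which growth factor signals keep inactive, was the most abundant, with an FPKM of 7.28, 6.77 and 4.31 in normal retina versus 5.16, 5.82 and 7.22 in PVR retina. The groups overlapped almost fully, and its log2 fold change was -0.085 (standard error 0.25, edgeR adjusted p = 0.866). The sign turned without normal replicate 1 (0.058), without normal replicate 2 (0.017), without PVR replicate 1 (0.019) and with limma on both FPKM scales (0.0084 and 0.0045). BMF, tied to the loss of cell attachment, had 4.14 ± 0.294 FPKM (SD, n = 3) in normal retina versus 5.05 ± 0.363 FPKM (SD, n = 3) in PVR, without overlap. Its log2 fold change was 0.21, with a 95% interval from -0.10 to 0.53. BCL2L11, which encodes BIM, was bounded between -0.52 and 0.16.

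The remaining BH3-only genes were rare. BBC3, the p53 target PUMA, had 46, 71 and 77 counts in normal retina versus 43, 30 and 51 in PVR retina. HRK, a gene of dying neurons, had 15 to 22 counts in the normal samples and 5 to 29 in PVR, and a 2-fold difference was not detectable at this depth. BID, which caspase-8 cuts to link the receptor route with the mitochondrion, had 16, 31 and 6 counts in normal retina versus 35, 32 and 33 in PVR retina. Its log2 fold change was 1.02 (standard error 0.60, edgeR adjusted p = 0.362), moving to 0.61 without normal replicate 3 and to 1.70 without normal replicate 2.

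At the death receptor, FAS binds its ligand and gathers FADD, caspase-8 and CFLAR, whereas TRADD and RIPK1 serve the TNF receptor. Of the 5 genes with a row, 4 had a positive log2 fold change, and CASP8 had the smallest p of all 33 members. CASP8, the initiator caspase of this route, had only 4, 3 and 15 counts in normal retina versus 32, 45 and 39 in PVR retina. On the FPKM scale this was 0.0682 ± 0.0617 (SD, n = 3) against 0.409 ± 0.0953 (SD, n = 3), with no overlap. Replicate 3 was the highest of the normal samples, and the gene passed the filter on low counts through the PVR samples.

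For CASP8 the log2 fold change was 2.50 (standard error 0.64, edgeR adjusted p = 0.0973), which put it at position 1029 of the 18697 genes ranked by p. Without normal replicate 3 the log2 fold change was 3.51 and the adjusted p from edgeR was 0.0354, with 1 of 33 members called against 2.9% of all genes. DESeq2 gave an adjusted p of 0.0167 at a log2 fold change of 2.52. Over all 14 alternatives with a value, the adjusted p lay between 0.0167 and 0.303 and was under 0.05 in these 2.

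CFLAR encodes FLIP, a relative of caspase-8 without enzyme activity that competes with it at the receptor. Its FPKM was 2.44, 2.03 and 2.43 in normal retina versus 2.78, 2.69 and 2.68 in PVR retina. The samples did not overlap, yet the log2 fold change was 0.17 (standard error 0.11, edgeR adjusted p = 0.412). The FPKM of CFLAR was 63.9, 74.1 and 17.5 times that of CASP8 in the normal samples and 7.46, 5.21 and 7.94 times in PVR, a ratio formed after the values of CASP8 had been seen. CFLAR thus stood above CASP8 in all 6 samples. FAS, the receptor itself, had an FPKM of 1.90, 2.21 and 1.82 in normal retina versus 2.17, 2.59 and 3.42 in PVR retina, with a slight overlap. This gave FAS a log2 fold change estimate of 0.39 (standard error 0.23, edgeR adjusted p = 0.355), and without PVR replicate 3, the highest sample, it was 0.18. RIPK1, a kinase that can turn the TNF signal towards survival or death, stood at 0.884 ± 0.385 FPKM (SD, n = 3) and 1.01 ± 0.0451 FPKM (SD, n = 3). TRADD, the adaptor of the same complex, stayed within 44 to 92 counts in every sample.

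CASP8, CASP10 and CFLAR lie side by side in the rabbit genome, in the order CASP8, CASP10, CFLAR in RefSeq's mOryCun1.1 annotation. CASP10, a second receptor caspase and not among the 33, had 35, 39 and 13 counts in normal retina versus 66, 55 and 49 in PVR retina. The PVR samples were all higher, with a log2 fold change of 1.08 (standard error 0.49, edgeR adjusted p = 0.256). The 3 neighbours thus had log2 fold changes of 2.50, 1.08 and 0.17.

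Downstream of the mitochondrion, none of the 4 caspase and apoptosome genes with a row had an unadjusted p under 0.05 in edgeR, and their median log2 fold change was 0.0059. CASP2, a caspase linked to DNA damage and the most abundant of them, had an FPKM of 7.35, 7.47 and 9.32 in normal retina versus 8.93, 8.41 and 8.35 in PVR retina. The PVR values all fell inside the range of the normal samples, and the log2 fold change was 0.022 (standard error 0.12, edgeR adjusted p = 0.931), turning to -0.0093 without PVR replicate 1, -0.036 without normal replicate 1 and -0.0076 without normal replicate 2. APAF1, the scaffold of the apoptosome, had a log2 fold change of -0.0097 with a 95% interval from -0.27 to 0.25. CASP9, which the scaffold activates, had one of -0.018 with an interval from -0.62 to 0.59. The signs of both turned under several alternatives. CASP6, an executioner caspase also known from axon loss, had 193, 208 and 110 counts in normal retina versus 178, 178 and 268 in PVR retina. Its log2 fold change was 0.36, and 0.12 without normal replicate 3.

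CYCS encodes cytochrome c and had no row of that name, but RefSeq's gene identifier pointed to a row, which is given outside the 33 genes. It had an FPKM of 70.3, 56.5 and 49.1 in normal retina versus 83.9, 79.0 and 94.7 in PVR retina, without overlap. The log2 fold change was 0.48 (standard error 0.15, edgeR adjusted p = 0.132, DESeq2 adjusted p = 0.0318). Cytochrome c has many processed copies in mammals, so this count is uncertain.

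The other mitochondrial proteins leave the space between the membranes when apoptosis starts. DIABLO and HTRA2 relieve the block by XIAP, while AIFM1 and ENDOG go to the nucleus, where ENDOG cuts DNA. Of these 4 genes only AIFM1 had a positive log2 fold change, and in CPM none of the 4 overlapped between the groups. Across the 33 members, 11 genes (33.3%) did not overlap, against a background of 28.0%, with 21.2% against 13.4% on the higher side and 12.1% against 14.6% on the lower side.

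ENDOG had 321, 342 and 199 counts in normal retina versus 145, 85 and 172 in PVR retina. On the FPKM scale these were 4.54, 4.61 and 2.73 in normal retina versus 2.50, 1.45 and 2.20 in PVR retina. Normal replicate 3 was close to the PVR samples, and the other normal samples were well above them. For ENDOG the log2 fold change was -1.02 (standard error 0.31, 95% interval -1.74 to -0.30, edgeR adjusted p = 0.129). With DESeq2 the adjusted p was 0.0215, and over the 15 alternatives it lay between 0.0215 and 0.303, with log2 fold changes from -1.23 to -0.82 on counts.

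DIABLO had an FPKM of 26.6, 24.4 and 25.4 in normal retina versus 23.8, 20.7 and 24.3 in PVR retina. The PVR samples were lower by a narrow margin, and the log2 fold change was -0.22 (standard error 0.11, edgeR adjusted p = 0.279). HTRA2, a protease, had a log2 fold change of -0.18 with a 95% interval from -0.46 to 0.09. AIFM1, a flavoprotein that living cells need for respiration, had an FPKM of 19.0, 17.1 and 19.0 in normal retina versus 21.6, 24.2 and 20.6 in PVR retina. All PVR samples were above the normal ones, with a log2 fold change of 0.20 (standard error 0.09, edgeR adjusted p = 0.245).

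The 3 inhibitor of apoptosis proteins had log2 fold changes from -0.37 to 2.48. XIAP, which blocks caspases directly, had an FPKM of 191, 140.1 and 136 in normal retina versus 123, 110.4 and 146 in PVR retina. Normal replicate 1 was the highest and the other samples overlapped, with a log2 fold change of -0.37 (standard error 0.17, edgeR adjusted p = 0.263). It was -0.19 without normal replicate 1. The ratio of XIAP to its antagonist DIABLO was 6.09 ± 0.974 (SD, n = 3) in normal retina versus 5.51 ± 0.424 (SD, n = 3) in PVR.

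BIRC2 and BIRC3 encode the sister proteins cIAP1 and cIAP2, ubiquitin ligases that keep RIPK1 in its survival form, and BIRC3 is a textbook target of NF-kB. BIRC2 was abundant in both groups, at 20.7 ± 1.96 FPKM (SD, n = 3) in normal retina versus 23.4 ± 1.23 FPKM (SD, n = 3) in PVR, with a 95% interval of the log2 fold change from -0.12 to 0.32. BIRC3 had 128, 159 and 28 counts in normal retina versus 495, 779 and 319 in PVR retina. On the FPKM scale it stood at 0.538, 0.638 and 0.114 in normal retina versus 2.54, 3.94 and 1.21 in PVR retina. All PVR samples were above all normal samples, with a wide spread in each group.

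For BIRC3 the log2 fold change was 2.48 (standard error 0.65, 95% interval 0.96 to 4.01, edgeR adjusted p = 0.103). The adjusted p was 0.0273 with DESeq2, the lowest of the 15 alternatives, and 0.301 with edgeR without PVR replicate 1, the highest. Without normal replicate 3, the lowest normal sample, the log2 fold change was 2.03. Both genes are direct neighbours in RefSeq's mOryCun1.1 annotation. As a ratio to BIRC2, the FPKM of BIRC3 was 0.0236, 0.0309 and 0.00607 in normal retina versus 0.116, 0.164 and 0.0502 in PVR retina.

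**Figure D3:**
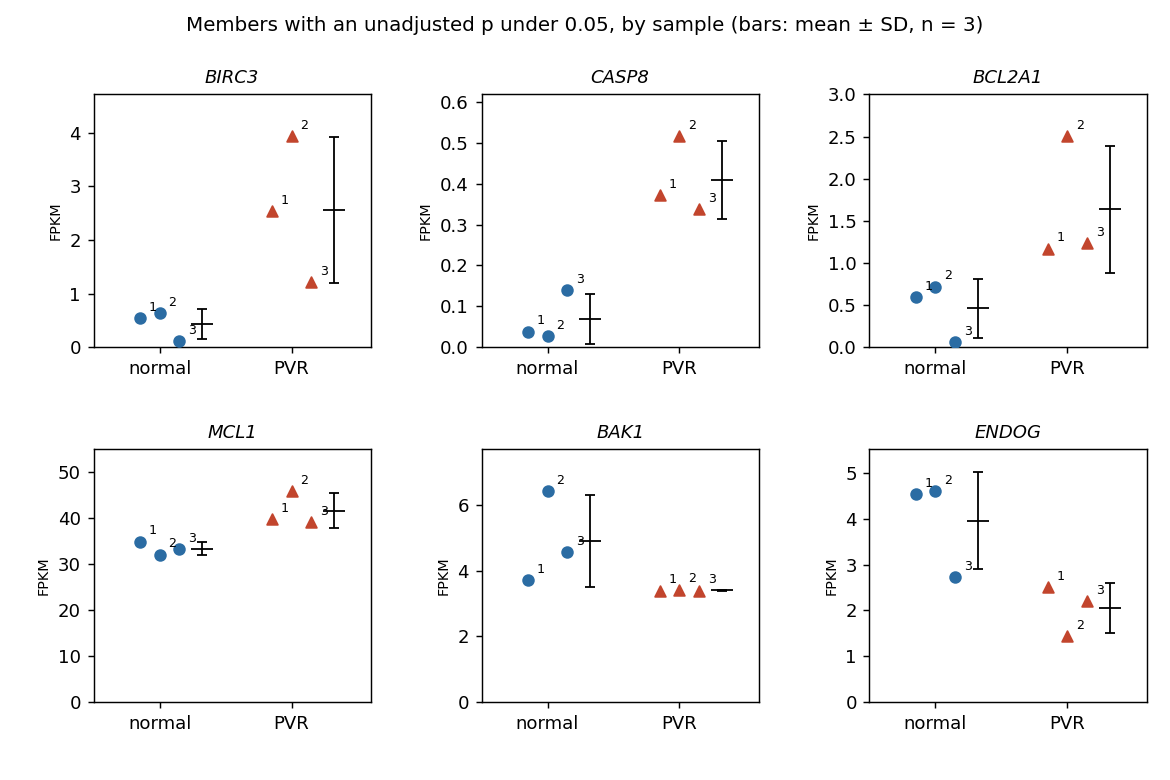
FPKM by sample of the 6 cell death genes with an unadjusted p under 0.05, with the replicate number beside each point and bars for mean ± SD (n = 3). BIRC3, CASP8, BCL2A1 and MCL1 are higher in every PVR sample and BAK1 and ENDOG lower, and normal replicate 3 is the lowest normal sample for BIRC3, BCL2A1 and ENDOG.

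In pyroptosis, caspase-1 is activated by inflammasomes and cuts gasdermin D, and GSDME encodes a further gasdermin. Of the 3 genes with a row, none had an unadjusted p under 0.05 in edgeR. GSDME was by far the most abundant, with an FPKM of 4.82, 5.25 and 5.15 in normal retina versus 6.76, 7.55 and 5.39 in PVR retina, where replicate 3 was close to the normal samples. For GSDME the log2 fold change was 0.30 (standard error 0.15, edgeR adjusted p = 0.300). CASP1 had 24, 11 and 1 counts in normal retina versus 9, 9 and 4 in PVR retina. GSDMD had 21, 24 and 1 counts in normal retina versus 28, 14 and 7 in PVR retina. The 95% intervals of both held a 2-fold difference either way, from -2.85 to 1.71 for CASP1 and from -2.04 to 2.53 for GSDMD. Normal replicate 3 held 1 count of each gene, and without it the log2 fold changes were -1.11 for CASP1 and -0.30 for GSDMD.

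PARP1, a DNA damage sensor that executioner caspases cut, was among the most abundant members. It had an FPKM of 28.0, 25.6 and 29.1 in normal retina versus 25.3, 24.2 and 28.7 in PVR retina. The groups overlapped, with a log2 fold change of -0.15 (standard error 0.09, edgeR adjusted p = 0.383).

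Markers of immune cells were measured in the same samples. Among the normal samples, replicate 3 was the lowest for 16 of the 33 members (48.5%), against 37.7% of all genes, and BCL2A1, BID, BIRC3, CASP1 and GSDMD were 5.31-fold to 25.2-fold lower there in CPM than in the highest normal sample, 5 genes chosen after their values were seen. The microglia and macrophage markers were also lowest in that sample. Their summed level was 76.4, 76.6 and 37.4 CPM in normal retina versus 111, 117 and 93.7 CPM in PVR, for 12 of 13 markers with a row, of which none was at 0. All 12 had a positive log2 fold change. None passed an adjusted p of 0.05 in edgeR, against 1.09% of all genes on the higher side. An unadjusted p under 0.05 was found for 6, against 11.3% of all genes on the higher side.

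The granulocyte and platelet markers were lower in level but further apart. Their sum was 3.53 to 6.09 CPM in normal retina versus 11.9 to 22.0 CPM in PVR, over 9 of 11 markers with a row, with MPO at 0. In edgeR 3 of the 7 tested markers, S100A8, S100A9 and S100A12, passed an adjusted p of 0.05 on the higher side, against 1.09% of all genes. S100A8 had 24, 5 and 2 counts in normal retina and passed the filter on low counts through the PVR samples. The lymphocyte markers summed to 1.80 to 7.74 CPM in normal retina versus 6.49 to 21.7 CPM in PVR. All 11 of 11 markers had a row, and none was at 0 in all samples. CD3E, CD3D, CD3G, MS4A1 and CD79B had 0 counts in normal replicate 3 and in PVR replicate 3. PTPRC held the larger part of the sum in every sample, with a mean of 3.31 CPM in normal retina and 10.1 CPM in PVR. The lymphocyte sum was thus mainly a measure of PTPRC. In edgeR 4 of the 11 markers were tested, and none passed an adjusted p of 0.05. PTPRC alone had an unadjusted p under 0.05. The other tested markers, CD3E, CD79A and CD8A, overlapped between the groups in CPM. The ratio of mean CPM in PVR to that in normal was 1.69 for the summed microglia markers, 3.57 for the granulocyte and platelet markers and 2.54 for the lymphocyte markers. Without normal replicate 3, a setting chosen after seeing the data, these ratios were 1.40, 3.13 and 1.90. For PTPRC by itself the ratio over all samples was 3.05. Without the S100 genes the granulocyte and platelet ratio was 1.01, and ITGA2B was lower in every PVR sample, at a ratio of 0.693. The ratio was 5.60 for BIRC3, 5.77 for CASP8, 3.35 for BCL2A1 and 1.19 for MCL1. The part of immune cells in these differences was not tested.

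Several other marker lists were lower in PVR. The ratio of summed CPM was 0.763 for the rod genes (8 of 9 with a negative log2 fold change), 0.535 for the erythroid markers and 0.434 for the pigment epithelium, of which BEST1 was higher in every PVR sample (ratio 1.44). It was 0.213 for the oligodendrocyte markers and 0.347 without normal replicate 3. For the Mueller glia markers the ratio was 0.841 (5 of 7 with a negative log2 fold change). GLUL and RLBP1, the latter also on the pigment epithelium list, were lower (edgeR adjusted p = 0.0125 and 0.0294). GFAP was higher in every PVR sample (ratio 2.63, edgeR adjusted p = 0.143). The endothelial markers had a ratio of 1.07 as a sum, although 6 of 8 had a negative log2 fold change. KDR held nearly all of that sum, at 347 to 452 CPM of 390 to 468 CPM in normal retina. In PVR it held 447 to 472 CPM of 455 to 479 CPM. The ratio of the sum was thus mainly that of KDR, at 1.12. VWF and CDH5 were lower (edgeR adjusted p = 0.0119 and 0.0301). The ratio was 0.0808 for CLDN5 (edgeR adjusted p = 0.0781) and 1.18 for PECAM1. ENDOG had a ratio of 0.492 and BAK1 one of 0.659, and the part of these cell types was not tested either.

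**Figure D4:**
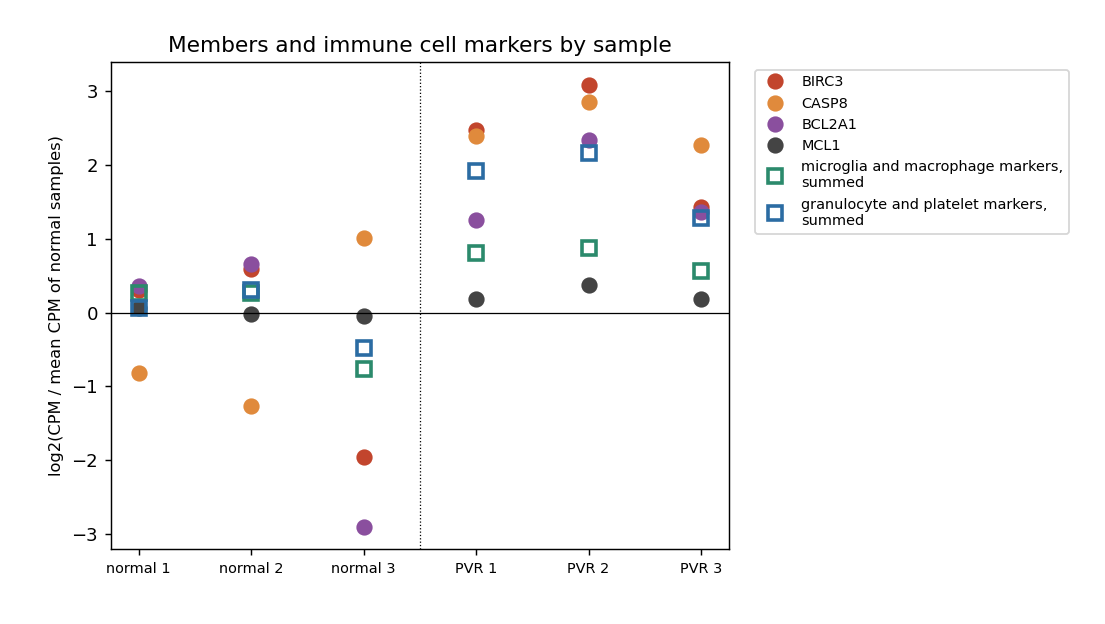
BIRC3, CASP8, BCL2A1 and MCL1 (filled circles) and the summed immune cell markers (open squares) in each sample, as log2 of the CPM over the mean of the 3 normal samples. BIRC3, BCL2A1 and both marker lists are lowest in normal replicate 3 and higher in all PVR samples, whereas CASP8 is highest among the normal samples in replicate 3.

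Further genes of the same pathways were taken from a list of 79, of which 68 had a row and 61 were tested. In edgeR 1 of them passed an adjusted p of 0.05 on the higher side and 0 on the lower side, against 1.09% and 0.615% of all genes, and 7 (11.5%) and 8 (13.1%) had an unadjusted p under 0.05, against 11.3% and 9.94%. The gene was NGFR, the low-affinity neurotrophin receptor, which belongs to the TNF receptor family and carries a death domain. NGFR had 100, 177 and 158 counts in normal retina versus 318, 349 and 514 in PVR retina. Each PVR sample held more counts than any normal sample, and the log2 fold change was 1.52 (standard error 0.24, edgeR adjusted p = 0.0342). The call was lost with an adjusted p of 0.187 without PVR replicate 1, 0.0820 without PVR replicate 2, 0.0657 without normal replicate 1 and 0.0699 without normal replicate 2, while the log2 fold change stayed at 1.33 or more.

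The death receptors and ligands as a group had 6 positive and 1 negative log2 fold changes among 7 tested, with a median of 0.86. Of the 12 other BCL2 relatives and mitochondrial membrane genes tested, 9 had a negative log2 fold change, and the median was -0.13. The mitophagy receptors BNIP3 and BNIP3L had log2 fold changes of -0.59 and -0.47 (edgeR adjusted p = 0.0905 and 0.0721), and every PVR sample was below the normal samples in CPM. BIRC7, another inhibitor of apoptosis protein, had 4810 counts in normal replicate 2, the sample with lens transcripts, and 99 to 274 in the other samples. IL1B, the cytokine that pyroptosis releases, had 1, 9 and 1 counts in normal retina versus 42, 40 and 44 in PVR retina, and its log2 fold change was 3.58 (standard error 0.78, edgeR adjusted p = 0.0718, DESeq2 adjusted p = 0.00106). IL18, a cytokine that caspase-1 matures as well, had 10, 8 and 0 counts in normal retina versus 47, 66 and 15 in PVR retina (edgeR adjusted p = 0.165, DESeq2 adjusted p = 0.0276). IL1B and IL18 passed the filter on low counts through the PVR samples, where they were higher. BNIP3, BNIP3L, BIRC7, IL1B and IL18 were singled out after their values were seen.

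The calls of the leading members differed between settings. CASP8, BIRC3 and ENDOG kept their direction in every alternative. DESeq2, the tool in the study's methods, called them with log2 fold changes of 2.52, 2.49 and -1.02. Without PVR replicate 1 the adjusted p of each from edgeR was between 0.301 and 0.303.

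**Figure D5:**
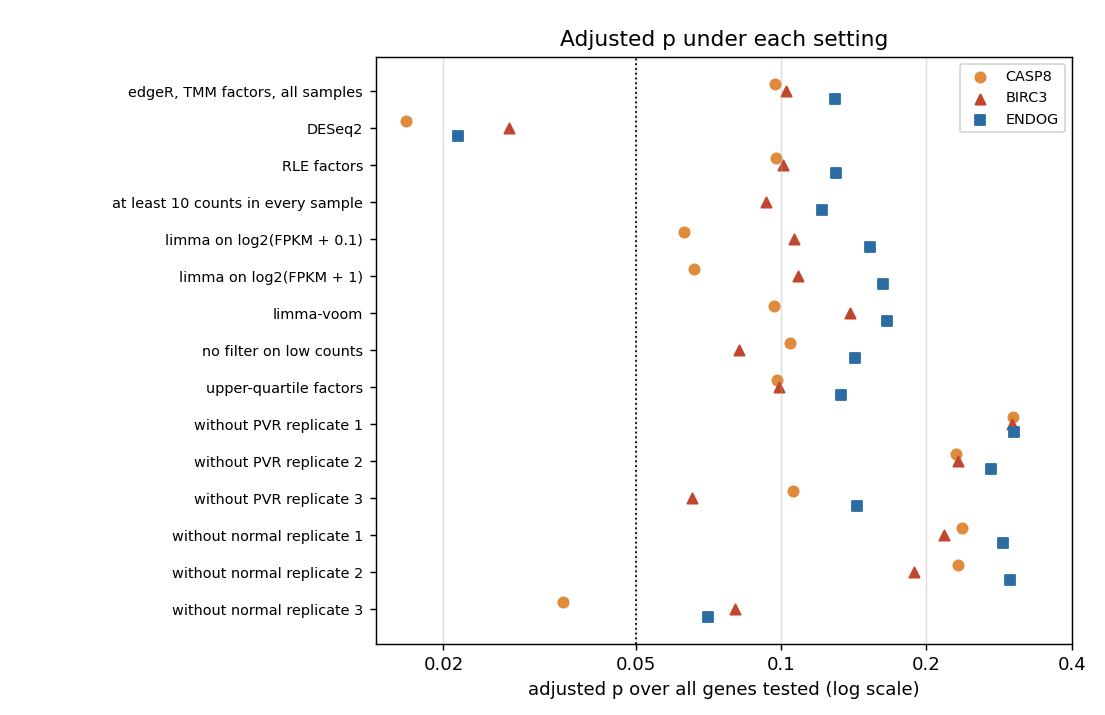
Adjusted p over all genes tested for CASP8, BIRC3 and ENDOG on a log axis, under the edgeR test of all samples, other tools, scalings and filters, and with each sample left out, with the dotted line at 0.05. All 3 genes are left of the line with DESeq2, and CASP8 also without normal replicate 3. The replicate block, which also called BIRC3, is not drawn.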

How the data were processed

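The samples were polyadenylated RNA libraries from rabbit retina, 3 normal and 3 PVR. The authors aligned the reads to the OryCun2.0 genome with HISAT2, counted reads for each gene with HTSeq and deposited the raw counts without normalization. Strand setting and annotation release are not given in the sources used here. The FPKM values deposited by the authors are the same counts divided by gene length and total count (largest relative spread of the implied length within a gene 4.24e-09).

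Samples were grouped by their titles. Counts were fitted in R 4.3.3 with edgeR 4.0.16: default low-count filter, TMM factors, a quasi-likelihood test of condition, and Benjamini-Hochberg adjustment over the 18697 genes tested. Standard errors and 95% intervals of log2 fold changes came from the F statistic and its degrees of freedom. A call was an adjusted p under 0.05, and the study's added fold threshold (log2 fold change beyond 1) is given beside it. CPM values use the TMM factors. FPKM served to compare levels between genes and to show values by sample. It lacks the TMM factors, so ratios of PVR to normal are somewhat higher on this scale than in CPM. For MCL1 the ratio was 1.25 in FPKM and 1.19 in CPM. Exact permutation tests were run in SciPy 1.17.1.

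The members and lists were chosen with earlier results of these data known. Members were taken by symbol. Genes of the other lists were taken by symbol or, failing that, by the gene identifier in RefSeq's mOryCun1.1 annotation, whose build differs from the study's, so that it served for names and gene order alone. All members could be named. Full values were given for the 12 members with the smallest p and for the member with the highest FPKM in each role group, and for other cell death genes with an adjusted p under 0.05. Some genes of the further pathway list are not reported here.

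The alternatives were DESeq2 1.42.0, limma-voom (limma 3.58.1), RLE and upper-quartile factors, no low-count filter, at least 10 counts in every sample, the replicate number as a block, fits that left out a single sample, and limma on FPKM values (log2 with a pseudocount of 1 or of 0.1). Adjusted p-values that DESeq2 withheld were kept so. The fits were tested on simulated counts. Depth was 31904593 to 43035080 counted reads per sample. Python 3.11.15, pandas 2.3.3 and matplotlib 3.10.9 were used for tables and plots.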

Additional observations from a re-analysis of the deposited data

How the results depend on the processing

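The cause of these differences was not tested. Over all genes, the number past the study's thresholds was 188, and it was 808 with DESeq2, 87 with limma on log2(FPKM + 1) and 82 with a replicate block. The number past an adjusted p of 0.05 alone was 318, and it was 1756 with DESeq2 and 92 with the block. With single samples left out these numbers ranged from 22 to 436 and from 22 to 650, lowest without PVR replicate 1 and highest without PVR replicate 3. Of the members, 0 passed an adjusted p of 0.05, against 3 with DESeq2, 1 with the block and 0 to 1 with a sample left out, and the number with an unadjusted p under 0.05 was 6, within 4 to 9 in all settings. The same-numbered samples had correlations of -0.01, 0.07 and 0.04, against -0.083 to 0.043 for samples of unlike number. No pairing was thus seen, though 3 samples per group cannot exclude one. The block added BIRC3 alone to the members' calls (edgeR adjusted p = 0.0363) and took NGFR from the further pathway genes (0.0662). Further pathway genes past an adjusted p of 0.05 numbered 1, against 9 with DESeq2, 3 with limma on log2(FPKM + 1) or log2(FPKM + 0.1), 2 with upper-quartile factors, 0 with the block and 0 to 4 with a sample left out.

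The members' median log2 fold change of -0.0038 moved by more than its spread between samples (SD 0.020) to 0.066 and 0.057 with limma on log2(FPKM + 0.1) and log2(FPKM + 1), 0.025 with limma-voom, 0.030 with upper-quartile factors and 0.019 to 0.094 with a sample left out. The median over all genes tested, -0.0088, moved to 0.060 and 0.037 on the FPKM scales and to 0.021 with upper-quartile factors, and was -0.0074 with limma-voom and -0.019 to 0.0078 with a sample left out. Of 489 comparisons of a member with an alternative, 442 kept direction and side of the threshold, 5 passed it only in the alternative, and 42 turned direction, in 11 members whose main values were at most 0.57 in size. The median of all genes was also higher on the FPKM scales, and why single values turned was not tested. In the same order of FPKM scales, the turned values were 0.016 and 0.0046 for BOK, 0.0084 and 0.0045 for BAD and 0.040 and 0.015 for TRADD. They were 0.039 and 0.030 for CASP9 and 0.066 and 0.057 for APAF1. HRK turned to 0.0043 with log2(FPKM + 1) and to 0.0041 with RLE factors. With upper-quartile factors HRK was 0.030, CASP9 0.012 and APAF1 0.018. APAF1 was 0.00066 with at least 10 counts in every sample, and CASP1 was 0.049 with limma-voom. With a sample left out, the values of these members ranged from -0.35 to 0.053 for BAX, -0.27 to 0.20 for BOK, -0.29 to 0.058 for BAD, -0.76 to 0.41 for HRK, -0.26 to 0.33 for TRADD, -0.17 to 0.50 for RIPK1, -0.036 to 0.13 for CASP2, -0.20 to 0.14 for CASP9, -0.11 to 0.063 for APAF1, -1.11 to 0.44 for CASP1 and -0.47 to 0.72 for GSDMD. Under the filter of at least 10 counts in every sample, CASP8, BCL2A1, BID, HRK, CASP1 and GSDMD had no value. The standard error was largest for CASP1 and GSDMD (0.98), with 1 to 28 counts per sample.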
